A study of Homo sapiens with 4 samples.

Results

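The miR-106b-25 and miR-106a-363 clusters are a pair of paralogues of the oncogenic miR-17-92 cluster, and their 7 measured members were described here across small RNA libraries of breast cells and their exosomes. The members were the rows named exactly hsa-miR-106b, hsa-miR-93 and hsa-miR-25 (miR-106b-25) and hsa-miR-106a, hsa-miR-18b, hsa-miR-20b and hsa-miR-363 (miR-106a-363), without the star names of passenger arms; the species prefix is left out from here on. All 7 were found among the 1100 mature miRNA names that each library reports. Small RNA had been sequenced in 4 libraries, 1 for each group: exosomes of MDA-MB-231, MDA-MB-231 cells, exosomes of MCF-10A, and a library labelled MCF-10A cell. MDA-MB-231, a line from a triple-negative breast cancer, was cultured in DMEM containing 10% FBS. MCF-10A, a mammary epithelial line that is not transformed, was kept in DMEM/F12 with horse serum at 5%, insulin, EGF, cholera toxin and hydrocortisone. How the exosomes were isolated is not given in the sources used here. With 1 library in each group no difference had a replicate check, so no p-value was computed, and each line stands for 1 culture.

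MicroRNAs are cut from hairpins in longer transcripts, and hairpins that lie close together are usually made from 1 primary transcript. The mature strand is held by an Argonaute protein and pairs with messenger RNAs mainly through its seed, bases 2 to 8, so that miRNAs with the same seed share many targets. The miR-106b-25 hairpins are transcribed with MCM7, a subunit of the replicative helicase and a target of the E2F factors, and are known to repress CDKN1A and the pro-apoptotic BCL2L11. The miR-106a-363 cluster was found as an integration site of retroviruses in mouse T-cell leukaemia and is weakly expressed or silent in many adult tissues.

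In GRCh38 (GENCODE release 29) the 3 hairpins of miR-106b-25 lie on the minus strand of chromosome 7 within 515 bases: MIR106B at 100093993 to 100094074, MIR93 at 100093768 to 100093847 and MIR25 at 100093560 to 100093643. All 3 are in intron 13 of the principal MCM7 transcript, which has 15 exons, and none overlaps an exon in any of the 8 MCM7 transcripts that span them. The miR-106a-363 cluster lies on the minus strand of the X chromosome, with 6 hairpins in 901 bases that overlap an exon of the noncoding gene AC002407.1. In the order of transcription these are MIR106A (134170198 to 134170278), MIR18B (134170041 to 134170111), MIR20B (134169809 to 134169877), MIR19B2, MIR92A2 and MIR363 (134169378 to 134169452). The mature miR-92a sequence is the same from MIR92A2 and from the miR-17-92 cluster, and miR-19b is likewise encoded in both clusters, so neither name can be assigned to the X chromosome.

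The mature sequences are shown because the seed groups and the single-base differences bear on how reads can be assigned. They are from RefSeq (GRCh38.p14), 5′ to 3′, with the seed in capitals, and were matched by name, taking the 5p arm for miR-106b, miR-93, miR-106a, miR-18b and miR-20b and the 3p arm for miR-25 and miR-363; all 7 matched.
miR-106b: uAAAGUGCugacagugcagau
miR-93: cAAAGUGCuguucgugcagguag
miR-106a: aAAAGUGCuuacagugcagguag
miR-20b: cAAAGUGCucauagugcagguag
miR-18b: uAAGGUGCaucuagugcaguuag
miR-25: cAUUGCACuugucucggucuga
miR-363: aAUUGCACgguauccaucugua

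The members thus fall into 3 seed groups. miR-106b, miR-93, miR-106a and miR-20b carry AAAGUGC, the seed of miR-17. miR-25 and miR-363 carry AUUGCAC, the seed of miR-92a, and miR-18b carries AAGGUGC, the seed of miR-18a. Both clusters therefore hold the first pair of seeds, and AAGGUGC was found only in miR-18b among the 7.

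Other names with a shared seed were not aligned with the members. The miR-17-92 names set beside them are these, with the same marking.
miR-17: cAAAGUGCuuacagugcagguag
miR-18a: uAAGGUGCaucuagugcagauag
miR-20a: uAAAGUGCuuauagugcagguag
miR-92a: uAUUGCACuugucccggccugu

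Counting positions from 1 at the 5′ end and giving the base of the miR-17-92 relative first, miR-106a differs from miR-17 by C1A alone, miR-18b from miR-18a by A20U alone, and miR-20b from miR-20a by U1C and U10C. miR-25 matches miR-92a at 18 of 22 positions, miR-93 matches miR-17 at 19 of 23, and miR-363 matches miR-92a at 10 of 22. How reads were divided between such near-identical names is not given in the sources used here, so the values of miR-106a, miR-18b and miR-20b are uncertain to that extent.

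Levels below are the deposited log2 values, on a scale worked out from the values themselves: reads per 10M (10000000) miRNA reads, plus 1. Whole reads recovered from them gave depths of 1532909 reads for exosomes and 7346080 for cells of MDA-MB-231, 1254641 for exosomes of MCF-10A, with 10937884 for the library labelled MCF-10A cell. Ratios between libraries carry an exact 95% interval on those reads, which covers counting error only, because PCR reads without molecular identifiers are not independent molecules. A list of 28 miRNAs of muscle, stroma, endothelium, blood, liver and nerve took 2.42% of the reads of exosomes and 0.0717% of cells of MDA-MB-231, 0.0846% of exosomes of MCF-10A, with 48.7% in the library labelled MCF-10A cell. The number of these names with 10 or more reads was 20, 10, 12 and 28 in the same order, and the number at 0 was 5, 9, 11 and 0. A list of 4 breast epithelial names took 0.0117%, 0.00856%, 4.32% and 0.773% of the reads in the same order. Of these, miR-205 stood at 3.81 in exosomes and 0 in cells of MDA-MB-231, 13.56 in exosomes of MCF-10A and 12.58 in that library. Against MCF-10A exosomes, miR-200c (18.52 against 15.38) and miR-141 (15.33 against 14.58) were also lower in that library. miR-203 was higher there (11.39 against 12). Each comparison that uses the library labelled MCF-10A cell contains this difference, and its part in the results below was not tested. In bulk RNA, fewer cells of a type and less RNA per cell cannot be told apart.

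miR-93 was the most abundant member in every library and held a nearly level position in 3 of them. miR-93, which carries the miR-17 seed and is known to repress CDKN1A, stood at 16.36 in exosomes and 16.28 in cells of MDA-MB-231, 16.63 in exosomes of MCF-10A, with 13.53 in the library labelled MCF-10A cell. By level it ranked 18, 15, 14 and 80 among all names of those libraries. The first 3 libraries lay within 0.35 log2 of each other, and the library labelled MCF-10A cell stood far below them.

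miR-106b, which shares the seed and the host intron of miR-93, was spread differently. It stood at 12.94 in exosomes and 14.92 in cells of MDA-MB-231, 13.49 in exosomes of MCF-10A, with 13.48 in the library labelled MCF-10A cell. MDA-MB-231 cells were the highest and their own exosomes the lowest, while the MCF-10A libraries could not be separated by counting (ratio 1.01, interval 0.953 to 1.06).

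miR-25, a repressor of BCL2L11 with the miR-92 seed, had another order again. It stood at 13.05 in exosomes and 12.52 in cells of MDA-MB-231, 11.78 in exosomes of MCF-10A, with 12.92 in the library labelled MCF-10A cell. The highest library was thus the exosomes of the cancer line and the lowest those of MCF-10A, over a range of 1.27 log2, and the library labelled MCF-10A cell did not stand apart for it.

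miR-106a was the only member of the X-linked cluster with over 100 reads in every library. It stood at 9.76 in exosomes and 9.33 in cells of MDA-MB-231, 10.07 in exosomes of MCF-10A, with 9.64 in the library labelled MCF-10A cell. The range of 0.74 log2 was the narrowest of the 7 members, and the counting intervals of MDA-MB-231 exosomes overlapped those of both MCF-10A libraries.

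The other 3 members of miR-106a-363 had 6 reads or fewer in each exosome library, 23 to 43 in cells of MDA-MB-231 and 205 to 4936 in the library labelled MCF-10A cell. miR-363, the last hairpin of the cluster, had 2 reads in exosomes and 25 in cells of MDA-MB-231, 0 in exosomes of MCF-10A, with 4936 in the library labelled MCF-10A cell, where it stood at 12.14. miR-20b, reported to repress HIF1A and VEGFA in breast cancer cells, had 4, 43, 6 and 1066 reads in the same order, with levels of 4.76, 5.9, 5.61 and 9.93. miR-18b, a relative of the oestrogen receptor repressor miR-18a, had 2, 23, 5 and 205 reads, with levels of 3.81, 5.01, 5.35 and 7.56.

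For these 3 names the library labelled MCF-10A cell was above each of the other libraries, with counting intervals that did not overlap, while MDA-MB-231 exosomes and MCF-10A exosomes could not be separated. The 0 reads of miR-363 in MCF-10A exosomes allow up to 3 reads, or 23.9 reads per 10M, more than 2 reads stand for in exosomes of MDA-MB-231.

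**Figure D1:**
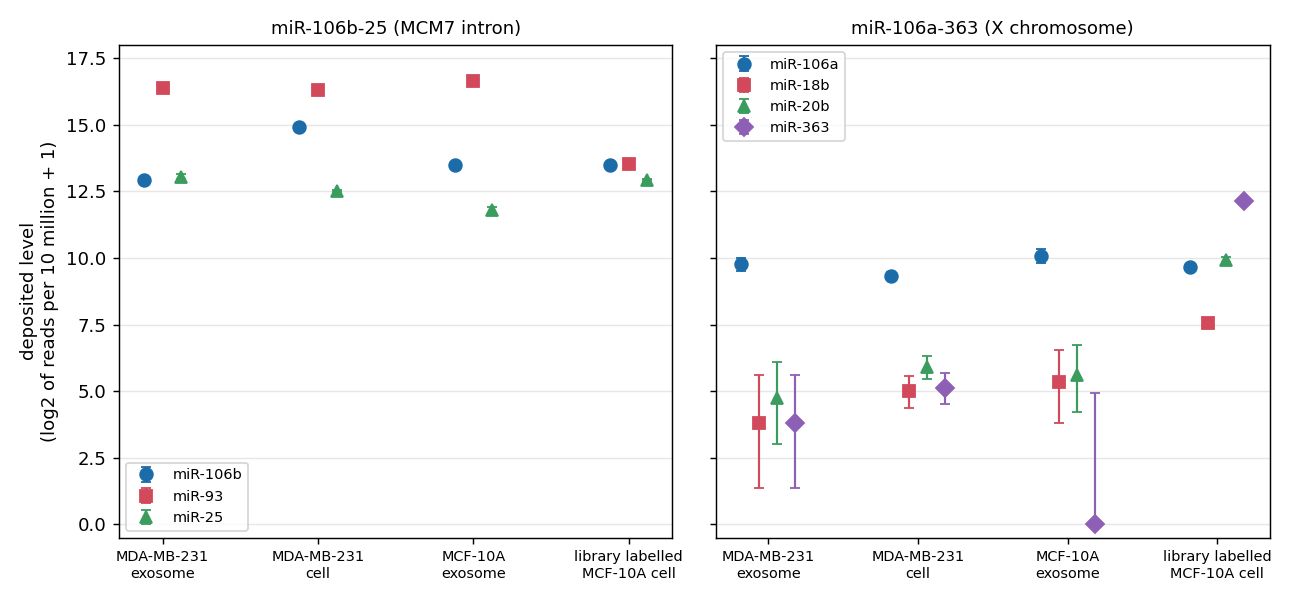
Deposited level (log2 of reads per 10M plus 1) of each member in the 4 libraries, left for miR-106b-25 and right for miR-106a-363, with exact 95% counting intervals as bars (hidden by the symbol where narrow). miR-93 stands between 16.28 and 16.63 in 3 libraries and at 13.53 in the library labelled MCF-10A cell, where miR-363 reaches 12.14.

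Summed over its members, miR-106b-25 took 1.00% of the reads in exosomes (Wilson 95% interval 0.989 to 1.02) and 1.16% in cells (1.157 to 1.17) of MDA-MB-231, 1.16% in exosomes of MCF-10A (1.15 to 1.18), with 0.310% in the library labelled MCF-10A cell (0.307 to 0.313). The 4 members of miR-106a-363 held 0.00920%, 0.00766%, 0.0116% and 0.0647% of the reads in the same order. The MCM7 cluster thus had the higher sum in every library, and the library labelled MCF-10A cell had its lowest share and the highest share of miR-106a-363.

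The ratio of the sums within a library does not depend on how libraries are scaled. miR-106b-25 reads outnumbered those of miR-106a-363 by 109 to 1 in exosomes (interval 92.5 to 130) and 152 to 1 in cells (140 to 165) of MDA-MB-231, 100.1 to 1 in exosomes (85.0 to 119) of MCF-10A, with 4.79 to 1 in the library labelled MCF-10A cell (4.67 to 4.92). The exosome libraries overlapped, and the library labelled MCF-10A cell lay far below the rest. With the shared names miR-19b and miR-92a added to the X-linked sum, the ratios were 3.09, 3.98, 3.01 and 0.674, so the ratio in the library labelled MCF-10A cell turned below 1.

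The makeup of miR-106b-25, whose 3 hairpins lie in 1 intron, differed between libraries. miR-93 made up 83.7% of the cluster's reads in exosomes (Wilson 95% interval 83.1 to 84.3) and 68.3% in cells (68.0 to 68.6) of MDA-MB-231, 87.1% in exosomes (86.6 to 87.6) of MCF-10A, with 38.2% in the library labelled MCF-10A cell (37.6 to 38.7). miR-106b made up 7.82%, 26.6%, 9.88% and 36.9%, and miR-25 made up 8.44%, 5.04%, 3.02% and 24.996% in the same order. As a share of the cluster's reads, miR-93 was therefore higher and miR-106b lower in both exosome libraries than in either cell library.

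miR-93 reads stood to miR-106b reads as 10.7 to 1 in MDA-MB-231 exosomes and 2.57 to 1 in MDA-MB-231 cells, a change of 4.17 times (95% interval 3.92 to 4.43 on the reads). The same ratio was 8.82 to 1 in MCF-10A exosomes and 1.04 to 1 in the library labelled MCF-10A cell, a change of 8.52 times (8.02 to 9.04). Between the exosomes of the lines it changed only 1.21 times (1.12 to 1.32). In this ratio exosomes exceeded the cell library of both lines.

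miR-106b reads stood to miR-25 reads as 0.926 to 1 in exosomes (interval 0.856 to 1.00) and 5.28 to 1 in cells (5.11 to 5.45) of MDA-MB-231, 3.27 to 1 in exosomes (2.94 to 3.65) of MCF-10A, with 1.47 to 1 in the library labelled MCF-10A cell (1.43 to 1.52). Here exosomes were below cells in MDA-MB-231 and above the library labelled cell in MCF-10A.

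**Figure D2:**
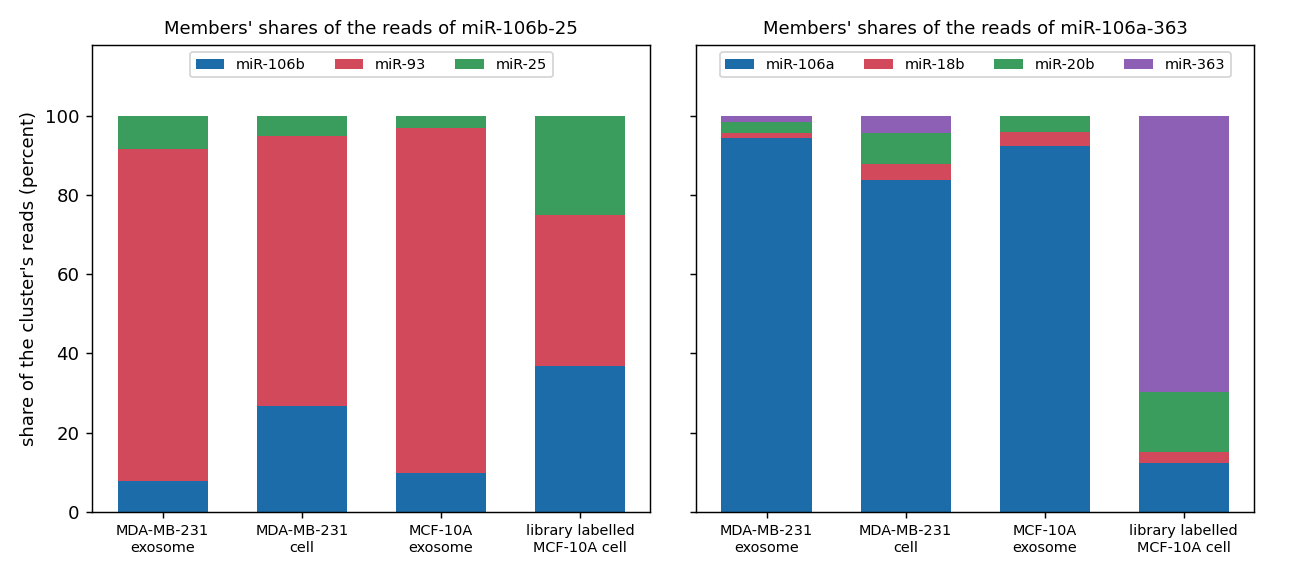
Share of each cluster's reads (percent, bars stacked from 0) that each member took in the 4 libraries, left for miR-106b-25 and right for miR-106a-363. The shared names miR-19b and miR-92a are not counted. miR-93 fills 83.7% and 87.1% of miR-106b-25 in the exosome libraries, and miR-363 fills 69.7% of miR-106a-363 in the library labelled MCF-10A cell.

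The makeup of miR-106a-363 was dominated by its first member in 3 libraries. miR-106a took 94.3% of the cluster's reads in exosomes (89.2 to 97.1) and 83.8% in cells (80.6 to 86.6) of MDA-MB-231, 92.5% in exosomes (87.0 to 95.7) of MCF-10A, with 12.3% in the library labelled MCF-10A cell (11.6 to 13.1). In that last library miR-363 took 69.7% (68.6 to 70.8) and miR-20b 15.1%, so the member with 0 to 25 reads elsewhere led the listed members there. The cluster's reads here leave out miR-19b and miR-92a, whose reads cannot be assigned to MIR19B2 and MIR92A2.

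The first comparison asked how exosomes of the cancer line differ from those of the non-transformed line. Of the 4 members with over 100 reads in both libraries, 3 were within 2-fold. In exosomes of MDA-MB-231, relative to those of MCF-10A, miR-25 was 2.41-fold higher (2.16 to 2.69), while miR-106b was 1.46-fold lower (1.36 to 1.58) and miR-93 1.21-fold lower (1.18 to 1.24). The intervals of miR-106a (1.24-fold lower, ratio 0.806, 0.630 to 1.03), miR-18b (2 against 5 reads) and miR-20b (4 against 6 reads) included no difference.

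By the size rule of a 4-fold difference in the deposited values, 1 of the 7 members was higher in MDA-MB-231 exosomes and 0 were lower, where 29.3% of the 505 names with at least 10 reads per 10M in either library were higher and 19% lower. That 1 was miR-363, with 2 against 0 reads, both under the 3 reads that a count of 0 allows, so no fold is given for it. In these libraries 1 read stands for 6.52 (MDA-MB-231) and 7.97 (MCF-10A) reads per 10M. Names with as few as 2 reads therefore pass the minimum and enter the shares of all names. At a 2-fold size 3 members differed (69.3% of names did), and by the read rule, which asks for 10 reads in 1 library and an interval that excludes no difference, also 3 (53.3% of names). The median log2 difference was −0.27 for miR-106b-25 and −0.58 for miR-106a-363, beside 0.59 for all names. Each member kept its sign under the 3 other scalings tried, but the reads of miR-106a, miR-18b, miR-20b and miR-363 did not establish a direction. The 28 names of other tissues took 2.42% of reads in exosomes of MDA-MB-231 and 0.0846% in those of MCF-10A, and their part in these differences was not tested.

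MDA-MB-231 exosomes against MDA-MB-231 cells is the comparison of a fraction with its source in 1 line. miR-106b was 3.95-fold lower in exosomes than in cells (3.72 to 4.19), at 1204 against 22772 reads. miR-93 was nearly level at 1.06-fold higher (1.04 to 1.08), a direction that turned under upper-quartile scaling, and miR-25 was 1.44-fold higher (1.36 to 1.54). miR-106a was 1.35-fold higher in exosomes (1.11 to 1.64), and the few reads of miR-18b, miR-20b and miR-363 gave intervals that included no difference.

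No member reached 4-fold in either direction here (0 of 7 higher and 0 of 7 lower), where 22.2% of 499 names were higher and 13.4% lower. miR-106b lay just short of that size, with a log2 difference of −1.98, and passed it under upper-quartile scaling (−2.24). At a 2-fold size 4 members differed, all lower in exosomes, where 60.5% of names differed in either direction. These were miR-106b together with miR-18b, miR-20b and miR-363, whose few reads gave intervals that included no difference. By the read rule 4 members differed (58.7% of names), of which miR-106b was the only one lower. Summed over members, miR-106b-25 was 1.16-fold lower in exosomes than in cells (1.14 to 1.18), and miR-93 made up 83.7% of those reads in exosomes and 68.3% in cells. The median log2 difference of its 3 members was 0.08, and that of miR-106a-363 was −1.17, beside −0.09 for all names. The 28 names of other tissues took 2.42% of reads in the exosomes and 0.0717% in the cells, and their part was not tested here either.

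Cells of the lines differed more, with the library labelled MCF-10A cell as the other side. In cells of MDA-MB-231, miR-93 was 6.73-fold higher (6.60 to 6.86) and miR-106b 2.71-fold higher (2.65 to 2.77), while miR-25 was 1.32-fold lower (1.27 to 1.37). The X-linked miR-363 was 133-fold lower (89.7 to 205), miR-20b 16.6-fold lower (12.3 to 23.1) and miR-18b 5.99-fold lower (3.88 to 9.66). miR-106a was 1.24-fold lower (1.11 to 1.39). The summed miR-106b-25 level was 3.76-fold higher (3.71 to 3.80) and that of miR-106a-363 8.44-fold lower (7.75 to 9.22). miR-25 turned to higher under upper-quartile scaling, and miR-106a under upper-quartile and median-of-ratios scaling.

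By size, 1 of 7 members was higher in MDA-MB-231 cells (17.4% of 665 names) and 3 were lower (54.3% of names). At a 2-fold size 5 members differed (83.5% of names did), and by the read rule all 7 (93.2% of names). The median log2 difference was 1.44 for miR-106b-25 and −3.29 for miR-106a-363, beside −2.83 for all names. All 3 MCM7 members lay above the median of all names, and miR-20b and miR-363 below it. A name could enter through either library, and 794 names were above 0 in the library labelled MCF-10A cell against 566 in MDA-MB-231 cells. The part of this in the median of all names was not tested. With libraries scaled over the reads outside the 28 names of other tissues, 0 members were 4-fold higher and 3 lower: the log2 difference was 1.79 for miR-93 and 0.48 for miR-106b, while it was −1.36 for miR-25 and −1.27 for miR-106a. Under upper-quartile scaling 4 were higher and 1 lower.

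In MCF-10A, exosomes against the library labelled cell gave a like picture, and it shares that library with the comparison of cells. miR-93 was 8.58-fold higher in MCF-10A exosomes (8.37 to 8.79) and miR-106b level, while miR-25 was 2.20-fold lower (2.003 to 2.43). miR-363 had 0 against 4936 reads and was at least 189-fold lower, with the 0 set at 3 reads, and miR-20b was 20.4-fold lower (9.33 to 55.7). miR-18b, at 5 against 205 reads, was 4.70-fold lower (1.98 to 14.6), and miR-106a was 1.35-fold higher (1.12 to 1.62).

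Here 1 of 7 members was higher at 4-fold (15.4% of 661 names) and 3 were lower (57.2% of names). Upper-quartile scaling turned that balance, with 3 higher and 1 lower. At a 2-fold size 5 differed (86.1% of names did), and by the read rule 6 (77.2% of names). The median log2 difference was 0.01 for miR-106b-25 and −3.27 for miR-106a-363, with −3.27 for all names. Only miR-93, miR-20b and miR-363 kept their direction under all 3 other scalings, and miR-106b, miR-25, miR-106a and miR-18b turned under 1 of them.

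**Figure D3:**
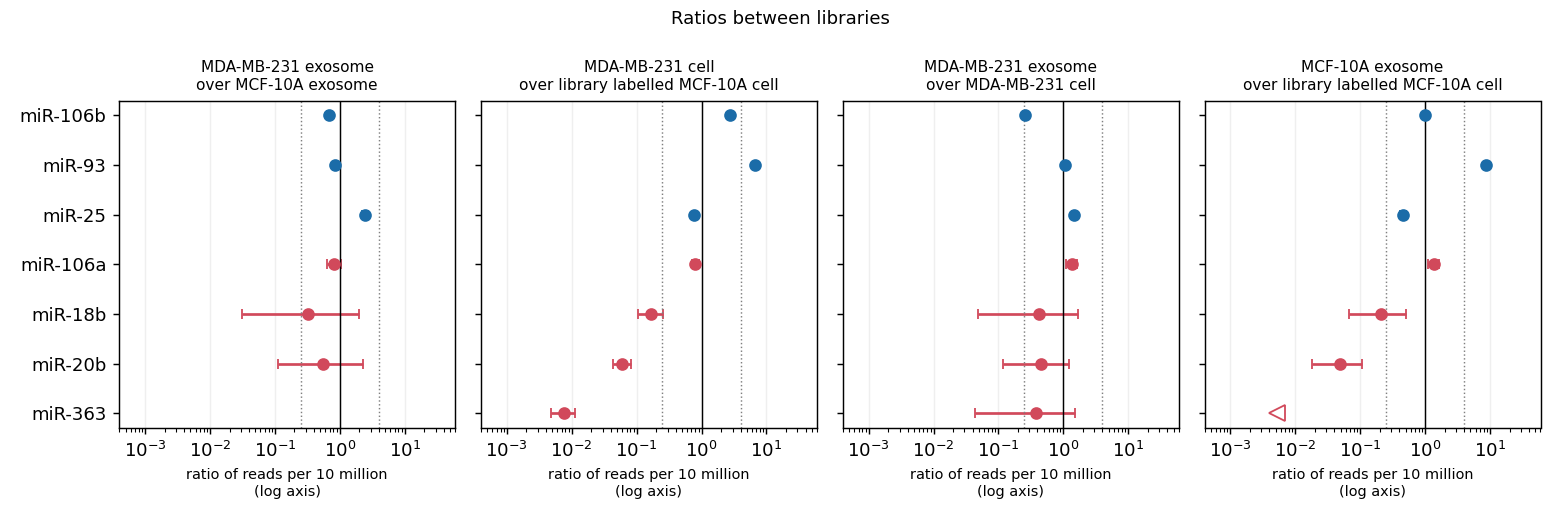
Ratio of reads per 10M between libraries (log axis) for each member in the 4 comparisons, with miR-106b-25 in blue, miR-106a-363 in red and exact 95% counting intervals as bars. The open triangle is a bound with 0 reads set at 3, the dotted lines mark 4-fold, and miR-363 in the first panel (2 against 0 reads) is not drawn. miR-106b in MDA-MB-231 exosomes lies at 3.95-fold below the cells, and miR-363 is 133-fold lower in MDA-MB-231 cells than in the library labelled MCF-10A cell.

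The passenger arms, the strands that are usually degraded, give a further readout of the same hairpins. For miR-106b the passenger arm miR-106b* took 14.7% of the reads of both arms in exosomes (Wilson 95% interval 12.9 to 16.6) and 2.95% in cells (2.74 to 3.17) of MDA-MB-231, 9.19% in exosomes (7.86 to 10.7) of MCF-10A, with 1.65% in the library labelled MCF-10A cell (1.45 to 1.89). The share was higher in exosomes than in the cell library of each line, with intervals that did not overlap. In MDA-MB-231 the arms moved in opposite directions, with miR-106b* 1.44-fold higher in exosomes (1.22 to 1.68) and miR-106b 3.95-fold lower.

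The other hairpins of the intron differed from that. miR-25* took 1.81% in exosomes (24 reads) and 1.10% in cells (48 reads) of MDA-MB-231, 2.43% in exosomes (11 reads) of MCF-10A, with 0.0236% in the library labelled MCF-10A cell (2 reads). miR-93* took 0.00776% (1 read), 0.0564% (33 reads), 0.165% (21 reads) and 0.423% (55 reads) in the same order of libraries. The share of miR-25* was also higher in exosomes in both lines, but in MDA-MB-231 the intervals overlapped (1.22 to 2.68 in exosomes, 0.831 to 1.46 in cells). The share of miR-93* was lower in exosomes in both lines, with intervals that overlapped in MDA-MB-231 (0.00137 to 0.0439 in exosomes, 0.0402 to 0.0792 in cells) and not in MCF-10A (0.108 to 0.252 in exosomes, 0.325 to 0.551 for the labelled cell library). miR-93 was almost entirely its guide strand in all 4 libraries.

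**Figure D4:**
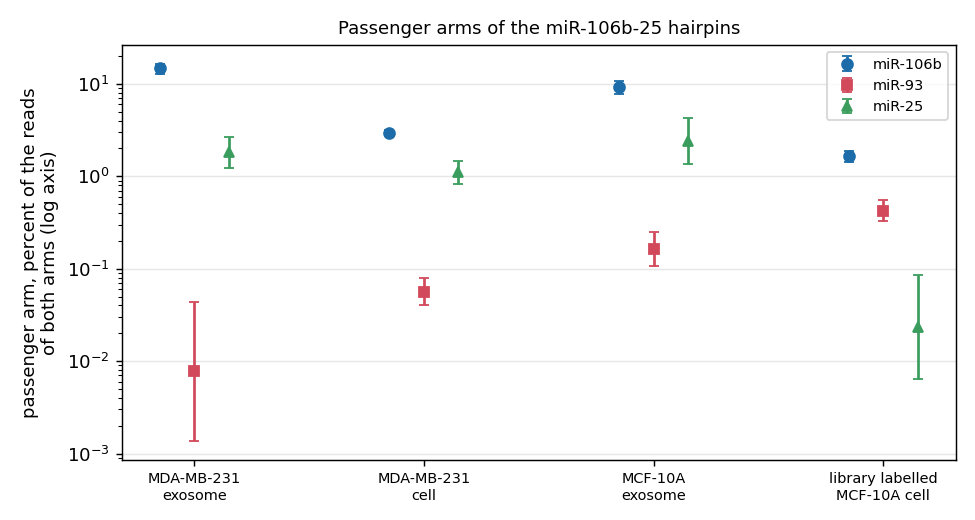
Passenger arm reads of miR-106b, miR-93 and miR-25 as a percent of the reads of both arms (log axis) in the 4 libraries, with Wilson 95% intervals as bars. miR-106b* takes 14.7% and 9.19% in the exosome libraries, against 2.95% in cells of MDA-MB-231, with 1.65% in the library labelled MCF-10A cell.

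The X-linked hairpins had passenger reads in the library labelled MCF-10A cell alone. Their 6 passenger names (miR-106a*, miR-18b*, miR-20b*, miR-363*, and miR-19b-2* and miR-92a-2*, whose names are particular to the X-linked hairpins) summed to 47 reads there and to 0 in each of the 3 other libraries. Set against 3 reads for a count of 0, the sum was lower by at least 10.5-fold in cells of MDA-MB-231 and by at least 1.80-fold in exosomes of MCF-10A. miR-20b* had 20 of these reads, miR-106a* 17, miR-18b* 4 and miR-363* 2. The shallower exosome libraries allow up to 19.6 (MDA-MB-231) and 23.9 (MCF-10A) reads per 10M at 0 reads, beside 43.0 for the sum in the library labelled MCF-10A cell.

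Set beside their miR-17-92 relatives, the X-linked members were minor in 3 libraries. For each 100 reads of miR-17 there were 3.49 reads of miR-106a in exosomes (2.92 to 4.15) and 1.29 in cells (1.18 to 1.42) of MDA-MB-231, 2.94 in exosomes (2.46 to 3.49) of MCF-10A, with 9.08 in the library labelled MCF-10A cell (8.46 to 9.73). For each 100 reads of miR-18a there were 0.330, 0.139, 0.603 and 53.0 reads of miR-18b, and for each 100 of miR-20a there were 0.0665, 0.0736, 0.0799 and 13.6 of miR-20b, in the same order. miR-106a, 1 base from miR-17, was thus the X-linked member with the largest share of its relative in 3 libraries, and its own reads and any miR-17 reads assigned to it cannot be told apart.

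**Figure D5:**
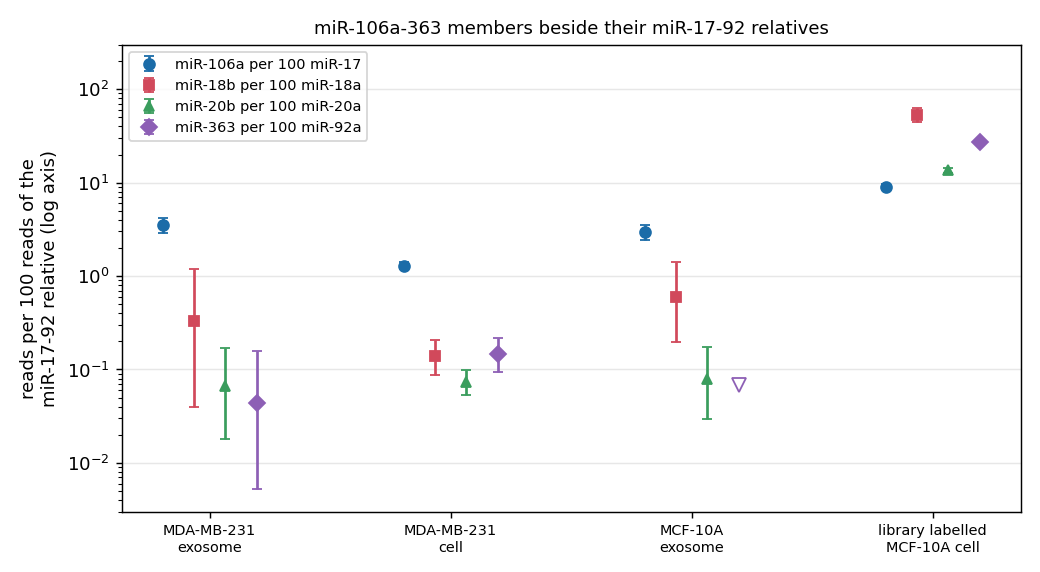
Reads of each miR-106a-363 member for each 100 reads of its relative in the miR-17-92 cluster (log axis) in the 4 libraries, with exact 95% intervals as bars and an open triangle at the 3-read bound where a member had 0 reads. The library labelled MCF-10A cell is highest for all 4 pairs, with 53.0 reads of miR-18b for each 100 of miR-18a.

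Over all names with a shared seed, the members' weight differed by seed. Of the reads with the seed AAAGUGC (the 4 members with miR-17, miR-20a, miR-519d and miR-526b*), members held 59.2% in exosomes and 46.3% in cells of MDA-MB-231, 54.2% in exosomes of MCF-10A, with 58.6% in the library labelled MCF-10A cell. Of the reads with AUUGCAC (miR-25 and miR-363 with miR-92a, miR-92b, miR-32 and miR-367), members held 20.7%, 17.5%, 8.42% and 38.1%. For AAGGUGC, miR-18b held 0.329%, 0.139%, 0.600% and 34.6% beside miR-18a. miR-93 alone outnumbered miR-17 in every library, by 3.39, 1.60, 2.77 and 1.35 to 1 in the same order.

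Outside the members, a list was read that held the miR-17-92 names miR-17, miR-18a, miR-19a, miR-19b, miR-20a and miR-92a. It also held miR-92b, miR-32 and miR-367, which share the seed of miR-92a and lie outside these clusters. Of these names, 8 of 9 passed the minimum in each comparison. In MDA-MB-231 exosomes against MDA-MB-231 cells, 6 of the 8 were at least 2-fold lower and 0 higher. Of all names 60.5% differed by that size in either direction. Of the 6, miR-17 (log2 difference −1) and miR-20a (−1.02) lay at the limit. Under median-of-ratios scaling, and with scaling over names outside the other-tissue lists, 4 were lower. The median log2 difference of the 8 was −1.37, beside −0.09 for all names. miR-18a (5.70-fold lower, 5.26 to 6.19) and miR-32 (4.98-fold lower, 3.91 to 6.45) passed 4-fold, whereas miR-92a was 1.29-fold higher (1.25 to 1.34). miR-106b, at 3.95-fold lower, lay among these values, and miR-93 and miR-25 lay beside miR-92a. In the exosomes of MDA-MB-231 against those of MCF-10A, 0 of the 8 reached 2-fold, and under upper-quartile scaling 4 were lower. Of all names 69.3% reached 2-fold, but that share includes names with as few as 2 reads. Each of the 8 had 29 or more reads in both exosome libraries.

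In cells of MDA-MB-231, relative to the library labelled MCF-10A cell, 3 of the 8 listed names (miR-17, miR-18a and miR-20a) were at least 4-fold higher, where 17.4% of all names were. miR-19b was 4.35-fold lower (4.204 to 4.50), where 54.3% of all names were at least 4-fold lower, and it turned to 0.32 log2 higher under upper-quartile scaling, which put 7 of the 8 at least 4-fold higher. miR-19b stood at 10.66 in exosomes and 12.38 in cells of MDA-MB-231, 11.25 in exosomes of MCF-10A and 14.5 in that library. Since miR-19b is encoded in both clusters, its source in that library cannot be told apart. In exosomes of MCF-10A against that same library, 3 of the 8 (miR-17, miR-18a and miR-20a) were at least 4-fold higher (15.4% of all names) and 2 (miR-19b and miR-32) at least 4-fold lower (57.2% of all names). Upper-quartile scaling ended both lower calls, with −0.62 log2 for miR-19b and 0.09 for miR-32, and gave 5 higher.

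Among 169 other names with at least 100 reads per 10M in every library, those whose pattern over the 4 libraries was closest were named for each abundant member, by the root mean square difference of the levels after each name's mean was subtracted. For miR-93 these were miR-106b* (0.24 log2), miR-100 (0.25) and miR-99b (0.27), beside a median of 1.68 over all 169 names. For miR-106b they were miR-19a (0.35), miR-361-3p (0.37) and miR-30e* (0.37), beside a median of 1.24. For miR-25 they were miR-151-5p (0.21), miR-101 (0.26) and let-7c (0.26), and for miR-106a miR-222 (0.20), miR-125a-5p (0.21) and miR-92b (0.23), each beside a median of 1.19. The name closest to miR-93 was thus the passenger arm of its neighbour. Members were left out of the candidates, so the guide strand miR-106b could not be listed. With 4 libraries, 1 of which stands apart, these distances are a description.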

How the data were processed

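Small RNAs of 17 to 52 nt were sequenced on a Genome Analyzer IIx, 1 library per group, per the labels' protocols. The submitters' processing notes list Novoalign, edgeR and hg18 without role or version. Read assignment, exosome isolation and the miRBase release are not given in the sources used here. As deposited by the authors, log2 values with 2 decimals cover 1100 names. That they are log2 of reads per 10M plus 1 was inferred, because the linear values of each library sum to about 10000000, and low values are whole multiples of 1 read. Of the names above 0, 65.7%, 55.7%, 65.6% and 40.1% (MDA-MB-231 exosomes and cells, MCF-10A exosomes and cells) could be resolved to single reads (rounding interval under 0.5 reads wide), and 100% of those were whole within it; larger read numbers are known to 0.347%.

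Comparisons used size rules and read intervals: log2 difference of 2 (4-fold) or 1 (2-fold) in the deposited values, a minimum of 10 reads per 10M in 1 library, and exact conditional binomial 95% intervals on recovered reads (SciPy 1.17.1, Python 3.11.15). Differences of deposited values include a pseudocount of 1. Intervals of a ratio's change between libraries are normal approximations on log reads. Read recovery, intervals and calls were tested on simulated data. The named miRNAs were the members, their passenger arms, the miR-17-92 names, names sharing a seed and the 3 closest patterns of 4 members; the arms of miR-19b-2 and miR-92a-2 were added after their values were seen. The members and lists were chosen with earlier results of these data known. Alternatives were 3 other scalings, a pseudocount of 10, minimums of 0 and 50, the read rule, medians in place of sums, and other sums of the clusters.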

Additional observations from a re-analysis of the deposited data

Results flagged for a closer look

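For 3 members of miR-106b-25 the same contrast ran in opposite directions in different fractions or lines, with counting intervals on each side that excluded no difference. No replicate was at hand, and the difference between the contrasts was not tested. All of these involve the library labelled MCF-10A cell; 48.7% of its reads were in miRNAs of other tissues, whose part was not tested.

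miR-106b was lower in exosomes of MDA-MB-231 than of MCF-10A (log2 difference −0.55) and higher in MDA-MB-231 cells than in the library labelled MCF-10A cell (1.44). miR-93 did the same, at −0.27 in exosomes and 2.75 in cells. For both, these directions held under the 3 other scalings tried.

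miR-25 ran the other way, at 1.27 in exosomes and −0.40 in cells, where the value for cells became 2.04 under upper-quartile scaling. miR-25 was also higher in exosomes than in cells of MDA-MB-231 (0.53) but lower in MCF-10A exosomes than in the library labelled MCF-10A cell (−1.14, or 1.49 under upper-quartile scaling).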

How the results depend on the processing

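No paired analysis was possible because each group held 1 library with no replicate number. Leaving out a replicate was likewise not possible.

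The count of members at least 4-fold apart stayed within 1.5 times in 24 of 32 alternatives. Between exosomes of the lines it was 1, and became 3 at a 2-fold size, 3 by the read rule and 0 with a pseudocount of 10 or a minimum of 50 reads per 10M. Between MDA-MB-231 exosomes and cells it was 0, and became 4 at a 2-fold size, 4 by the read rule and 1 under upper-quartile scaling. Between the cell libraries it was 4, and became 7 by the read rule; upper-quartile scaling gave 4 higher and 1 lower there, in place of 1 and 3, and 3 higher and 1 lower in MCF-10A exosomes over the labelled cell library, in place of 1 and 3. The scalings of the miR-17-92 relatives were added after seeing the data.

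Upper-quartile scaling added 2.44 log2 to MDA-MB-231 cells over the library labelled MCF-10A cell and 2.63 to MCF-10A exosomes over it, while scaling over names outside the other-tissue lists added −0.96 in both. The log2 ratio of the miR-106b-25 sums, 1.91 in MDA-MB-231 cells over that library, passed 4-fold under upper-quartile (4.35) and median-of-ratios scaling (2.27). In MCF-10A exosomes over that library it was 1.91, and 4.54 and 2.59 under these scalings. The miR-106a-363 sum, −3.08 in MDA-MB-231 cells over that library, was −0.64 under upper-quartile scaling, and in MCF-10A exosomes over it, −2.48, it was −1.80 under median-of-ratios and turned to 0.15 under upper-quartile scaling. In MDA-MB-231 exosomes over cells, medians of the members in place of sums turned miR-106b-25 to 0.08 (sum −0.21) and miR-106a-363 to −1.17 (sum 0.26). The causes were not tested.

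Without miR-106a the ratio of miR-106b-25 to miR-106a-363 reads was 1925 in exosomes and 940.0 in cells of MDA-MB-231, 1328 in exosomes of MCF-10A and 5.46 in their labelled cell library. With miR-19b and miR-92a it was 3.09, 3.98, 3.01 and 0.674. Depth limits miR-18b, miR-20b and miR-363, which had 6 reads or fewer in each exosome library.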

Other observations

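miR-519d and miR-526b*, which share the seed of miR-106b and miR-93, had reads in the library labelled MCF-10A cell alone. miR-519d had 1844 reads there and 0 in each of the other 3 libraries, lower by at least 413-fold in cells of MDA-MB-231 and by at least 70.5-fold in exosomes of MCF-10A with the 0 set at 3 reads. miR-526b* had 31 reads there and 0 elsewhere.

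miR-32, an intronic miRNA with the seed of miR-25, had 68 reads in exosomes and 1623 in cells of MDA-MB-231, 29 in exosomes of MCF-10A, with 1477 in the library labelled MCF-10A cell. Relative to the cells, exosomes of MDA-MB-231 were 4.98-fold lower (interval 3.91 to 6.45) and those of MCF-10A, relative to their labelled cell library, 5.84-fold lower (4.05 to 8.75), a difference that upper-quartile scaling turned to 0.09 log2 higher, whereas miR-25 was 1.44-fold higher and 2.20-fold lower in the same comparisons.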
